A study of Drosophila melanogaster with 30 samples.

Results

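The attraction versus aversion contrast of the odor-selected lines comprised 24 of the 30 head libraries of the series. Its members were chosen by their labels alone. The PI+ side held 12 libraries from 6 lines (BUT+ and CYC+, labelled High), and the PI- side held 12 libraries from 6 lines (BUT- and CYC-, labelled Low). PI is the preference index, which is positive when flies in a T-maze move toward an odorant and negative when they move away from it. The BUT lines had been selected with 2,3-butanedione at 0.1% and the CYC lines with cyclohexanone at 0.01%. The question addressed was whether heads of lines selected for attraction differed from heads of lines selected for aversion in the same genes, whichever odorant was used for selection. The remaining 6 libraries came from 3 control lines that were kept through the same assay with no odor. They did not enter the main tests and are given beside the selected lines.

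All lines, controls included, descended from 1 outbred *Drosophila melanogaster* population made by intercrossing inbred lines of the *Drosophila* Genetic Reference Panel, and carried no transgene. Selection ran for 30 generations, with 3 replicate lines per treatment. Each library was made from a pool of 100 whole heads of females aged 3 to 7 days, and each line gave 2 such pools. The line is the unit that was selected, so the counts of the 2 pools of a line were summed, and 6 PI+ lines were compared with 6 PI- lines with the odorant as a block. Values are CPM, counts of a gene scaled to a common total count per line, after TMM scaling of the lines. Neither the labels nor the methods say that a line number links a PI+ line to a PI- line, so lines were not paired. Drift within a line cannot be told apart from selection in that line.

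In *Drosophila*, odorants are detected by neurons of the antenna and maxillary palp that carry odorant receptors or ionotropic receptors, and odorant-binding proteins and odorant-degrading enzymes act in the lymph around those neurons. Whether an odor attracts or repels is shaped further in the brain, in the antennal lobe, mushroom body and lateral horn, under modulators such as dopamine, octopamine, serotonin and neuropeptides. A whole head also holds the eye, fat body, glia, muscle and part of the gut. A lower level in such a mixture can reflect fewer cells of a type or less RNA per cell, and these cannot be told apart here.

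The summed depth of a line ranged from 56346153 to 64195501 counts in PI+ (median 59607246) and from 59377083 to 74662536 counts in PI- (median 64834855), a difference with an exact two-sided permutation p of 0.06. Of 17471 genes listed, 9262 reached 1 CPM in at least 6 of the 12 lines and were tested. As markers of the head, 9 of 9 neuronal markers, 33 of 34 photoreceptor genes and 16 of 17 glial genes passed this filter. So did 1 of 16 ovary and egg transcripts and 2 of 12 male-specific transcripts. Across genes, PI+ minus PI- differences tended to be lower in genes with longer exonic sequence (Spearman's rho -0.339 over 9133 genes, a description across genes of the same libraries). With genes in 5 bins of length, the median difference was 0.044 in the shortest bin and -0.047 in the longest, on the log2 scale. The part of gene length in the results below was not tested, except that the main gene lists are also given after removal of this trend.

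Heads of attraction and aversion lines differed mostly by small amounts, and no gene passed correction by edgeR or limma voom on the line sums, while DESeq2 called 146. Cytochrome P450s lay higher in PI+ (57 of 67 above 0, median log2 fold change 0.15), as did antimicrobial peptides (20 of 21, median 0.45), and ribosomal proteins lay slightly higher (82 of 84, median 0.08). Genes of the synaptic vesicle cycle lay slightly lower (24 of 24 below 0, median -0.09). The 19 of 60 odorant receptors that could be tested were centred on 0. Over all genes tested 49.1% were above 0.

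At the level of lines, 0 genes (0% of those tested) differed between PI+ and PI- at an adjusted p under 0.1 by the quasi-likelihood test of edgeR (Benjamini-Hochberg adjusted), and the smallest adjusted p was 0.22. At an unadjusted p under 0.05 there were 1055 genes (11.4% of those tested), 588 higher in PI+ (6.35%) and 467 lower in PI+ (5.04%). The median size of the difference among these genes was 0.15 on the log2 scale, and 23 of them differed by at least 1. Other tools gave other counts of called genes. limma voom on the same line sums called 0, DESeq2 called 146 (97 higher and 49 lower in PI+), and edgeR on the 24 libraries as separate samples called 99. No call is made below for a single gene in the pooled comparison, and "higher" and "lower" describe values.

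The BUT and CYC contrasts share no library. Of the 9262 genes, 5409 (58.4%) had the same sign in both, and the log2 fold changes of the contrasts correlated with r = 0.236 and rho = 0.187 across genes. Genes do not vary independently, so these values carry no p. With an unadjusted p under 0.05 required in each odorant, 70 genes (0.756%) had the same sign, 47 higher and 23 lower in PI+, and 37 genes (0.399%) had opposite signs. The count of same-sign genes depended on single lines. It was 39 without BUT+ line 2 and 112 without CYC+ line 2, and that of opposite-sign genes was 21 without CYC- line 2. In the first samples of the lines alone the counts were 36 and 17, and in the second samples alone 61 and 20.

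**Figure D1:**
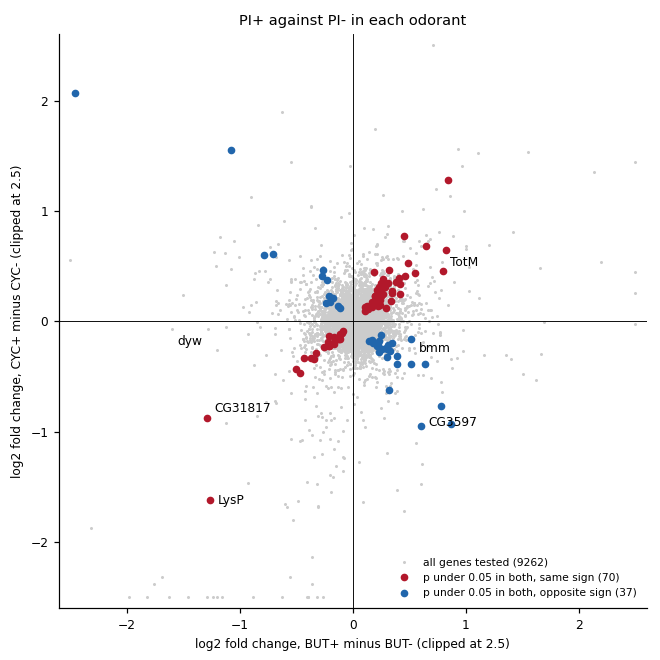
Each point is a gene, with the log2 fold change of BUT+ over BUT- on the x axis and of CYC+ over CYC- on the y axis, both clipped at 2.5. The 70 genes with an unadjusted p under 0.05 and the same sign in both odorants are red, the 37 with opposite signs are blue, and the cloud of all 9262 genes is centred near 0 on both axes.

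The 10 genes with the smallest p that were higher in PI+ of both odorants led with *TotM* (2L, 5329857 to 5330464), which encodes a secreted stress factor of the Turandot family. Its level was 16.3, 16.1 and 17.8 CPM in the BUT+ lines and 8.96, 10.1 and 9.91 CPM in the BUT- lines. It was 14.7, 9.6 and 11.8 CPM in the CYC+ lines and 7.58, 9.62 and 9.13 CPM in the CYC- lines. The BUT groups did not overlap, whereas CYC+ line 2 lay at the level of the highest CYC- line. Single libraries were spread more widely and overlapped, from 4.82 to 30.0 CPM in PI+ and from 4.04 to 14.5 CPM in PI-. The log2 fold change of *TotM* was 0.62 ± 0.11 (SE, n = 6 lines per side, adjusted p = 0.22 by edgeR, exact permutation p = 0.01), and the control lines, at 15.3 to 17.6 CPM, were at the level of BUT+. The smallest p the permutation test allows here is 0.005, and 16 of the 20 genes named for the smallest p in a direction were at it. Those genes were chosen by p in the same lines, so their permutation p adds no separate support. *TotA* and *TotC*, of the same family, lay in the same direction, at 0.49 ± 0.17 and 0.54 ± 0.16 on the log2 scale, and were chosen after their values were seen.

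A pair of these genes lie close together on 2L. *CG14401* (2L, 20869854 to 20871565) had a median of 17.2 CPM in PI+ lines (15.6 to 19.4) and 11.5 CPM in PI- lines (10.6 to 14.6). The 6 PI+ lines all lay above the 6 PI- lines, a pattern found in 22 genes (0.238% of those tested), and the log2 fold change was 0.51 ± 0.09. *bero* (2L, 20858695 to 20861014), which encodes a Ly6-type membrane protein, lies 8840 bases from it. Its median was 366 CPM in PI+ lines (324 to 409) and 304 CPM in PI- lines (283 to 341), a log2 fold change of 0.27 ± 0.05. Within each odorant the *bero* ranges did not overlap, and the control lines were at 334 to 410 CPM.

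*Cyp4p1* (2R, 9240041 to 9242139), a cytochrome P450, was the detoxification gene among the 10. It was at 172, 218 and 204 CPM in BUT+ against 122, 163 and 122 CPM in BUT-. In the CYC lines it was at 235, 214 and 254 CPM in CYC+ against 192, 159 and 170 CPM in CYC-. All PI+ lines were above the PI- lines of their own odorant, and the log2 fold change was 0.49 ± 0.09 (adjusted p = 0.22 by edgeR, exact permutation p = 0.005). *pkm* was at a median of 788 CPM in PI+ and 632 CPM in PI-, a log2 fold change of 0.30 ± 0.06. *spel1*, which encodes a MutS-type mismatch repair protein, differed less, with medians of 23.4 and 20.6 CPM and a log2 fold change of 0.19 ± 0.04. The other 4 genes, *CG31313*, *Sclp*, *CG15629* and *CG30197*, had log2 fold changes of 0.43, 0.32, 0.33 and 0.23. *Sclp* was at 0.45 in CYC and 0.19 in BUT, and its interaction was not past correction (adjusted p = 0.694 by edgeR).

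The 10 genes that were lower in PI+ of both odorants included larger folds at low counts and smaller ones at high counts. *LysP* (3L, 1218082 to 1218696), a lysozyme gene known from the salivary gland, was at 1.47, 2.27 and 1.21 CPM in BUT+ and at 3.49, 4.49 and 3.91 CPM in BUT-. It was at 0.988, 2.01 and 0.436 CPM in CYC+ and at 4.05, 3.46 and 2.98 CPM in CYC-. No PI+ line reached the lowest PI- line, a pattern found in 28 genes (0.302% of those tested), and the log2 fold change was -1.44 ± 0.28. In single libraries *LysP* ranged from 0.375 to 3.75 CPM in PI+ and from 0.103 to 6.83 CPM in PI-. The sides thus overlapped before the 2 pools of a line were summed. The control lines did not share a level, at 8.44, 0.344 and 10.2 CPM. *CG31817* was lower by a similar amount (log2 fold change -1.08 ± 0.23), with medians of 1.83 CPM in PI+ and 4.41 CPM in PI-, and CYC+ line 2, at 3.97 CPM, lay inside the PI- range.

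*ssp6* (3L, 6076722 to 6082491) had the smallest p among the lower genes, with a median of 27.2 CPM in PI+ (26.2 to 29.0) and 32.2 CPM in PI- (30.7 to 35.7). Its log2 fold change was -0.25 ± 0.04 (adjusted p = 0.22 by edgeR, exact permutation p = 0.005). The control lines, at 25.9 to 28.5 CPM, were within or just under the PI+ range. *rin*, which encodes the RNA-binding protein Rasputin, had medians of 134 and 147 CPM (log2 fold change -0.16 ± 0.03). *Tom70*, a receptor for protein import into mitochondria, had medians of 24.4 and 26.8 CPM (log2 fold change -0.14 ± 0.03). In both genes all 6 PI+ lines were below all 6 PI- lines although the difference was small. *CoRest*, a transcriptional corepressor, had medians of 55.0 and 63.9 CPM (log2 fold change -0.22 ± 0.05) and overlapped between the sides. The other 4, *CG42249*, *GV1*, *CG15356* and *CG30007*, had log2 fold changes of -0.39, -0.31, -0.24 and -0.18. In all, 18 of the 20 genes were among the 70 same-sign genes. The 6 PI+ and 6 PI- lines did not overlap in 7 of the 20, beside 50 of all 9262 genes tested. In single libraries the sides overlapped in each of these 7 genes. *Tom70*, for example, ranged from 20.1 to 27.3 CPM in PI+ libraries and from 23.6 to 29.4 CPM in PI- libraries. The 20 were chosen by p in the same lines, among genes with the same sign in both odorants. These counts thus follow largely from the choice and add no separate support. Some of the 20 genes overlap other annotated genes (*LysP* with *mwh*, *Tom70* with *CG18788*, *Cyp4p1* with *hig*, *CG14401* with *sky*). Since the use of strand in counting is not given in the sources used here, reads of these genes may be shared.

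**Figure D2:**
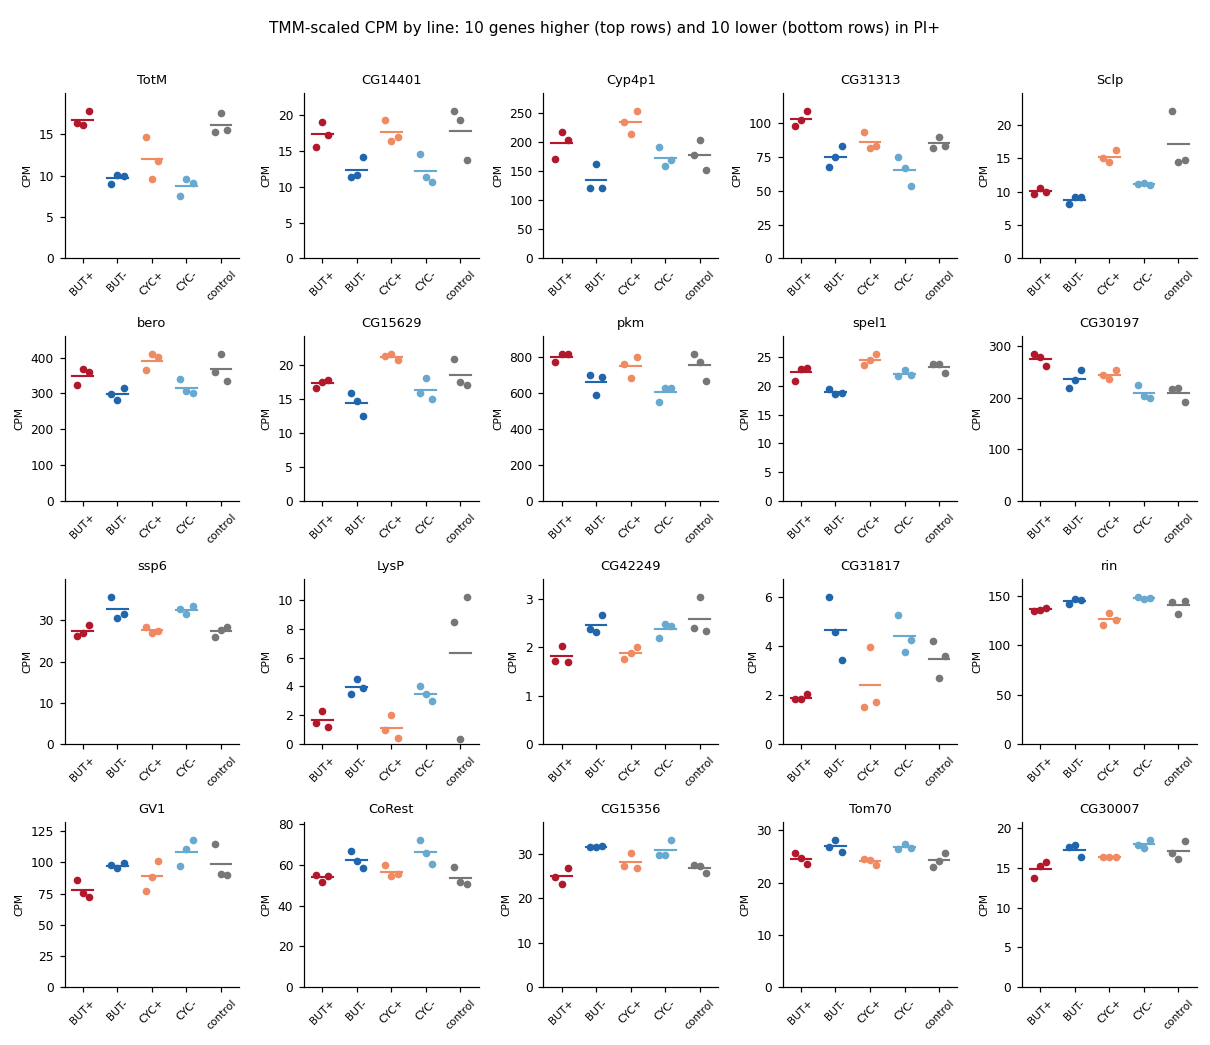
Each panel shows 1 gene, with TMM-scaled CPM on the y axis and the treatment on the x axis. Points are lines (3 per treatment, 2 pooled libraries each) and bars are treatment means, and in *CG14401*, *ssp6*, *LysP* and *Tom70* every PI+ point lies on 1 side of every PI- point.

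The position of the unselected lines differed between genes. Of the 1055 genes with an unadjusted p under 0.05, the control mean lay between the PI+ and PI- means in 569, above both in 280 and below both in 206. For 9 of the 10 higher genes the control mean was above the PI- mean, and for 8 of the 10 lower genes it was below the PI- mean. *CG30197* was the exception among the higher genes, with a control median of 216 CPM under the PI- median of 221 CPM. These are positions of means with no test.

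Among the genes of the olfactory periphery, the receptors that could be tested showed no common shift. Most receptors did not pass the filter, and 19 of 60 odorant, 12 of 66 ionotropic and 9 of 60 gustatory receptors were tested. Of 19 odorant receptors tested, 0 had an unadjusted p under 0.05, and their median log2 fold change was 0.00, with -0.06 in BUT and 0.09 in CYC. *Or42a* and *Or85e*, the members with the largest differences, were at -0.43 ± 0.38 and 0.24 ± 0.19 and overlapped widely between the sides. Both values depended on single CYC+ lines. *Or42a* was at -0.88 without CYC+ line 2 and -0.21 without CYC+ line 1, and *Or85e* was at 0.10 without CYC+ line 3. Of 9 gustatory receptors 0 had a p under 0.05. Of 12 ionotropic receptors 3 were lower in PI+ at that level and 0 were higher, against 5.04% of all genes lower. *Ir75a* and *Ir75b*, receptors for organic acids, and *Ir8a*, the co-receptor of acid-sensing neurons, were these 3.

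*Ir75a* was at 2.71, 3.71 and 3.67 CPM in BUT+ and 4.05, 5.51 and 5.92 CPM in BUT-, and at 2.22, 2.72 and 3.44 CPM in CYC+ and 3.73, 2.96 and 5.49 CPM in CYC-. The ranges were apart in BUT and overlapped in CYC, with a log2 fold change of -0.58 ± 0.17 (adjusted p = 0.336 by edgeR, exact permutation p = 0.02). *Ir75b*, its neighbour in the genome, had medians of 1.72 CPM in PI+ and 2.80 CPM in PI- (log2 fold change -0.71 ± 0.24). *Ir8a* ranged from 3.79 to 6.20 CPM in PI+ and from 4.54 to 6.71 CPM in PI- (-0.30 ± 0.12). All 3 receptors were under 7 CPM in every selected line. Markers of antennal and palp neurons as a list (15 tested) had a median of -0.02, with 6 of 15 above 0.

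Odorant-binding proteins, which are secreted around the olfactory neurons, were spread in both directions. Of 29 tested, 6 were higher and 1 was lower at an unadjusted p under 0.05, beside 6.35% and 5.04% of all genes, with a median log2 fold change of 0.03. *Obp19b* was at 12.4, 14.9 and 13.4 CPM in BUT+ and 10.4, 7.15 and 12.1 CPM in BUT-, and at 18.6, 12.1 and 20.1 CPM in CYC+ and 8.34 to 11.5 CPM in CYC-. Its lowest PI+ line and its highest PI- line were both at 12.1 CPM after rounding, without overlap, and its log2 fold change was 0.59 ± 0.15. Single libraries of *Obp19b* did overlap, at 10.8 to 24.4 CPM in PI+ and 6.85 to 12.4 CPM in PI-. *Obp99b* had the largest difference of the family (1.32 ± 0.53) with a wide spread, from 4.16 to 54.5 CPM in PI+ and from 2.32 to 18.5 CPM in PI-. *Obp99a* went the other way (-0.72 ± 0.25). In CYC its lines were at 56.8, 30.7 and 50.7 CPM in CYC+ and at 109, 132 and 103 CPM in CYC-, a log2 fold change of -1.31, while that in BUT was -0.15 (interaction adjusted p = 0.6 by edgeR). Over all 81 periphery genes tested, 7 were higher, 4 were lower and the median was 0.00.

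Cytochrome P450s, oxidative enzymes that act on xenobiotics, hormones and odorants, were often higher in PI+. Of 67 tested, 20 were higher and 0 were lower at an unadjusted p under 0.05, beside 6.35% and 5.04% of all genes, and 57 had a log2 fold change above 0, beside 49.1% of all genes. The median was 0.15 (0.11 in BUT and 0.14 in CYC, 0.12 with the length trend removed), and it stayed between 0.11 and 0.17 when any 1 line was left out. The mean log2 level of the family ranged from 4.80 to 4.93 in PI+ lines and from 4.55 to 4.74 in PI- lines, and the sides did not overlap. The control lines, at 4.86 to 5.02, reached from within the PI+ range to above it. The gap in this mean rests in part on *Cyp4d1*, at 0.423, 0.283 and 0.37 CPM in BUT- lines 2 and 3 and CYC- line 3. A mean without that gene is not given. The summed level of the family overlapped between the sides, at 6420 to 7480 CPM in PI+ and 5300 to 6680 CPM in PI-. None of the 67 genes passed correction over all genes tested by edgeR on the line sums. In the other settings tried, *Cyp4p1* passed in 3, *Cyp6a8* in 2, *Cyp6g1* in 1, and *Cyp4d1* and *Cyp309a1* in 0. The other P450s were not followed over those settings.

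Within the family the differences had several shapes. *Cyp6g1*, known for its role in insecticide resistance, was at 3170, 3430 and 3390 CPM in BUT+ against 2190, 2950 and 2790 CPM in BUT-. In CYC it was at 3250, 2720 and 3330 CPM against 2570, 2880 and 2780 CPM, so that CYC+ line 2 lay within the CYC- range. Its log2 fold change was 0.26 ± 0.08 (exact permutation p = 0.015). *Cyp6a8* had medians of 35.6 CPM in PI+ and 26.5 CPM in PI-, with log2 fold changes of 0.84 in CYC and 0.18 in BUT (interaction adjusted p = 0.633 by edgeR). *Cyp309a1*, at 0.71 ± 0.29, ranged from 4.76 to 13.6 CPM in PI+ and from 3.13 to 9.38 CPM in PI-. *Cyp6g1* and *Cyp6a8* were chosen after their values were seen.

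*Cyp4d1* had the largest difference of the family and was set by a few lines. It was at 35.0, 35.4 and 29.6 CPM in BUT+ and at 18.9, 10.7 and 22.7 CPM in CYC+. In the PI- lines it was at 16.9, 0.423 and 0.283 CPM in BUT- and at 21.8, 16.4 and 0.37 CPM in CYC-. Thus 3 of the 6 PI- lines were nearly without counts for this gene, while the other PI- lines were within the range of CYC+. The log2 fold change of 1.46 had an SE of 0.93 (unadjusted p = 0.144 by edgeR), and the control lines were at 37.2, 35.0 and 30.2 CPM.

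Glutathione S-transferases, which conjugate glutathione to reactive compounds, lay in the same direction with smaller values. Of 30 tested, 5 were higher and 0 were lower at an unadjusted p under 0.05, beside 6.35% and 5.04% of all genes. Of the 30, 25 were above 0, beside 49.1% of all genes, and the median was 0.09 (0.06 in BUT, 0.11 in CYC and 0.06 with the length trend removed). *GstO3* was at 90.6, 73.0 and 62.4 CPM in BUT+ and 60.8, 61.0 and 60.1 CPM in BUT-, and at 51.4, 59.4 and 65.0 CPM in CYC+ and 59.3, 33.7 and 25.8 CPM in CYC- (0.44 ± 0.17). *GstD10* was at 2.49 to 5.25 CPM in PI+ and 1.19 to 6.25 CPM in PI- (0.71 ± 0.39), with BUT- line 1 the highest of the 12 lines and a log2 fold change of 1.28 without it. UDP-glycosyltransferases (17 tested) and the takeout family of secreted ligand-binding proteins (17 tested) had medians of 0.02 and 0.03.

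Immune effectors were the list with the largest positive median. Of 21 antimicrobial peptide genes tested, 6 were higher and 0 were lower at an unadjusted p under 0.05, beside 6.35% and 5.04% of all genes. Of the 21, 20 were above 0 and 16 were above 0 in both odorants, beside 4551 and 2625 of all 9262 genes. The median log2 fold change was 0.45 (0.60 in BUT, 0.54 in CYC, 0.37 with the length trend removed). It was 0.29 without BUT+ line 2, and it was 0.63 in the first samples of the lines and 0.19 in the second. The mean log2 level of the list overlapped between the sides, from 4.32 to 5.81 in PI+ and from 4.31 to 5.62 in PI-. *CecA1*, a cecropin, was at 0.165, 6.69 and 1.79 CPM in BUT+ and 0.646, 1.06 and 0.283 CPM in BUT-, and at 6.62, 7.40 and 9.40 CPM in CYC+ and 5.14, 1.82 and 2.27 CPM in CYC-. BUT+ line 1 was the lowest of all lines. The log2 fold change was 1.69 ± 0.59 (exact permutation p = 0.05), and 1.08 without BUT+ line 2.

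*BomS2*, a short peptide made downstream of Toll signalling, was more even, at 307 to 317 CPM in BUT+ and 228 to 260 CPM in BUT-. In CYC it was at 387, 257 and 509 CPM in CYC+ and at 270, 262 and 244 CPM in CYC- (0.48 ± 0.13). *PGRP-SA*, the receptor for bacterial peptidoglycan, had a median of 13.5 CPM in PI+ (11.6 to 15.4) and 10.7 CPM in PI- (8.55 to 11.5), with no overlap of lines and a log2 fold change of 0.38 ± 0.08 (adjusted p = 0.28 by edgeR). Single libraries of *PGRP-SA* did overlap, at 8.01 to 21.5 CPM in PI+ and 7.78 to 16.3 CPM in PI-. *modSP*, a serine protease of the same cascade, had medians of 89.8 and 79.1 CPM (0.21 ± 0.05), and *NimB1*, of the Nimrod family, medians of 10.7 and 9.31 CPM (0.27 ± 0.08). *BomS2*, *modSP* and *NimB1* were chosen after their values were seen. Of 9 peptidoglycan recognition genes tested, *PGRP-SA* was the 1 with an unadjusted p under 0.05. This was 11.1% of the list, a share near the 11.4% of all genes. Of the 9, 8 were above 0, beside 49.1% of all genes, and the median was 0.08.

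Genes of neuronal signalling were shifted the other way, by small amounts. Of 191 genes in the lists of transmitters, modulators, peptides, receptors, channels, vesicle release and olfactory learning, 149 had a log2 fold change below 0, and 119 were below 0 in both odorants while 22 were above 0 in both. Over all 9262 genes, 4711 were below 0, 2784 were below 0 in both odorants and 2625 were above 0 in both. At an unadjusted p under 0.05, 20 of the 191 were lower and 7 higher, in all 14.1% of the set beside 11.4% of all genes. The median was -0.07 (-0.06 in BUT, -0.07 in CYC), -0.04 with the length trend removed, and -0.04 without BUT- line 1. The median exonic length of this set was 3868 bases, against 2184 over all genes tested.

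The synaptic vesicle list lay on 1 side. Of 24 genes tested, 24 were below 0 and 23 were below 0 in both odorants, beside 4711 and 2784 of all 9262 genes. The list median was -0.09 (-0.05 with the length trend removed), and it was -0.06 without BUT- line 1. An unadjusted p under 0.05 was found in 3 of the 24 (12.5%), a share near the 11.4% of all genes. *EndoA*, which encodes endophilin of the vesicle cycle, was at 255, 256 and 285 CPM in BUT+ and 304, 285 and 276 CPM in BUT-. In CYC it was at 255, 270 and 250 CPM in CYC+ and 299, 279 and 304 CPM in CYC- (-0.15 ± 0.04). BUT+ line 3 reached the BUT- range and the CYC ranges were apart. *Sytalpha*, a synaptotagmin, was at -0.16 ± 0.06. The mean log2 level of the list overlapped between PI+ (7.97 to 8.15) and PI- (8.03 to 8.25), and BUT+ line 3 and BUT- line 1 were the highest of their sides.

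Ion channels and receptors showed the same small shift. Of 21 genes in the list of voltage-gated channels 20 were below 0, 4 being lower and 1 higher at an unadjusted p under 0.05, beside 5.04% and 6.35% of all genes. Their median of -0.10 was -0.05 with the length trend removed and -0.06 without BUT- line 1. *SK*, kept in this list although it is a calcium-activated potassium channel, had medians of 251 CPM in PI+ and 290 CPM in PI- (-0.19 ± 0.06). *Sh*, the Shaker potassium channel, had medians of 357 and 402 CPM (-0.19 ± 0.12, and -0.09 without BUT- line 1). All 10 genes of GABA signalling were below 0 in the pooled fit, with 0 at an unadjusted p under 0.05, but 5 of the 10 had the same sign in both odorants, beside 58.4% of all genes. Their median of -0.05 was -0.01 without BUT- line 1. Of 9 nicotinic receptor subunits 8 were below 0, with a median of -0.10 that was -0.06 with the length trend removed and also without CYC+ line 1. The dopamine, octopamine, serotonin and neuropeptide lists had medians of -0.05, -0.06, -0.09 and -0.03. *dnc*, the phosphodiesterase of olfactory learning, had medians of 181 and 202 CPM (-0.12 ± 0.05), and *CrebA*, a bZIP factor kept in the learning list, medians of 40.4 and 44.7 CPM (-0.14 ± 0.04).

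*AkhR*, the receptor for adipokinetic hormone in fat body, is kept in the neuropeptide list and was chosen after its values were seen. It was at 171, 184 and 169 CPM in BUT+ and 141, 152 and 158 CPM in BUT-, and at 181, 164 and 150 CPM in CYC+ and 150, 138 and 133 CPM in CYC-. The ranges were apart in BUT and met at 150 CPM in CYC, and the log2 fold change was 0.23 ± 0.05 (exact permutation p = 0.005). Surface and adhesion proteins of neurons followed the channels, with 82 of 97 below 0 and a median of -0.07 (-0.04 with the length trend removed).

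Markers of neurons were also mostly below 0. The 9 markers include *ChAT* and *VAChT* of cholinergic neurons, and *nSyb*, *Syt1*, *brp* and *Snap25* of vesicle release. They are thus not a measure of neuronal content apart from the signalling lists. Of the 9, 8 were below 0, with a median of -0.11 (-0.09 in BUT, -0.14 in CYC). The median was -0.06 with the length trend removed and -0.07 without CYC+ line 1. The summed level of the markers was 3230 to 3860 CPM in PI+ and 3450 to 3950 CPM in PI-. *elav*, an RNA-binding protein of all neurons, had medians of 112 CPM in PI+ and 131 CPM in PI- (-0.16 ± 0.06), *fne* of the same family medians of 124 and 156 CPM (-0.27 ± 0.08), and *ChAT*, which makes acetylcholine, ranges of 85.3 to 96.2 and 92.2 to 108 CPM (-0.14 ± 0.05). Each was above 80 CPM in every line. The part of the share of neuronal RNA in the lower level of the signalling genes was not tested. Photoreceptor genes (33 tested), glial markers (16 tested) and muscle genes (24 tested) had medians of 0.01, -0.01 and -0.01.

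Ribosomal protein and proteasome genes were mostly on the PI+ side, by small amounts. Of 84 cytosolic ribosomal protein genes tested, 82 were above 0 and 74 were above 0 in both odorants, beside 4551 and 2625 of all 9262 genes. The list median was 0.08 (0.04 with the length trend removed), and it was 0.04 without BUT+ line 2 or BUT- line 1. At an unadjusted p under 0.05, 6 were higher and 1 was lower, in all 8.33% of the list beside 11.4% of all genes, so single members did not stand out. *RpL24-like*, the member with the largest difference, had medians of 170 and 150 CPM (0.22 ± 0.07). Of 32 proteasome subunits, 28 were above 0, 8 were higher and 0 lower at that level, beside 6.35% and 5.04% of all genes, and the median was 0.07 (0.04 with the length trend removed). *Prosbeta4*, a subunit of the catalytic core, was at 49.7, 53.3 and 46.4 CPM in BUT+ against 40.7, 43.8 and 42.8 CPM in BUT-, and at 56.0, 47.9 and 44.0 CPM in CYC+ against 43.1, 44.6 and 40.0 CPM in CYC-. The BUT ranges were apart and the CYC ranges overlapped, with a log2 fold change of 0.22 ± 0.06. The heat shock and stress list, which includes *TotM*, had 4 genes higher and 3 lower of 23 tested at that level, 15 below 0 and a median of -0.02. *Hsp83* of this list, the fly HSP90, had medians of 534 CPM in PI+ and 826 CPM in PI- (-0.63 ± 0.20).

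**Figure D3:**
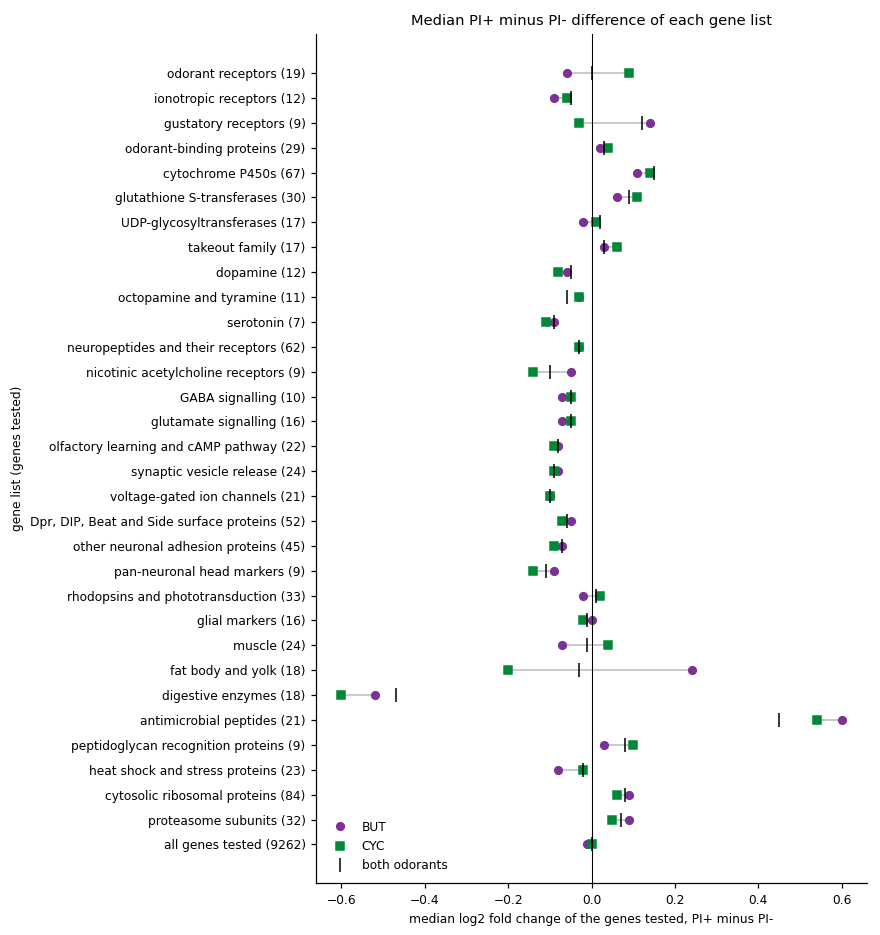
The x axis gives the median log2 fold change of PI+ over PI- for the genes tested in each list, in BUT (circles), CYC (squares) and both odorants (bars), with the number of genes in parentheses. Antimicrobial peptides (0.45) and digestive enzymes (-0.47) lie farthest from 0, P450s and ribosomal proteins lie above 0 and most neuronal lists below 0 in both odorants.

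Digestive enzyme genes varied widely between lines. Of 18 digestive enzyme genes tested, 6 were lower and 1 was higher in PI+ at an unadjusted p under 0.05, beside 5.04% and 6.35% of all genes, with a median of -0.47, but it was -0.95 in the first samples and 0.10 in the second, and -0.16 without BUT- line 3. *alphaTry*, a trypsin, was at 6.52, 3.90 and 1.09 CPM in BUT+ and 8.30, 1.37 and 30.7 CPM in BUT-. In CYC it was at 0.232, 6.66 and 0.617 CPM in CYC+ and 21.4, 0.812 and 24.9 CPM in CYC-. The sides overlapped, and lines of the same treatment were far apart (-2.23 ± 0.95, exact permutation p = 0.125). *Jon65Aiii*, a serine protease of the gut, was at -2.17 ± 0.94 (exact permutation p = 0.16). *LysP* belongs to this list.

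The fat body and yolk list had medians of opposite sign, 0.24 in BUT and -0.20 in CYC. Of its 18 genes, 4 had the same sign in both odorants, beside 58.4% of all genes, and 9 had an unadjusted interaction p under 0.05, beside 5.94% of all genes. The mean log2 level was 8.57 to 8.84 in BUT+ and 8.19 to 8.40 in BUT-, but 7.39 to 7.99 in CYC+ and 7.91 to 8.06 in CYC-. *Lsp1beta*, a storage protein, was at 297, 65.5 and 40.4 CPM in BUT+, at 11.5, 7.38 and 13.1 CPM in BUT-, and at 2.78 to 11.5 CPM in the CYC lines, with a pooled difference of 1.92 ± 0.88 that was 1.11 without BUT+ line 1 (interaction adjusted p = 0.595 by edgeR).

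**Figure D4:**
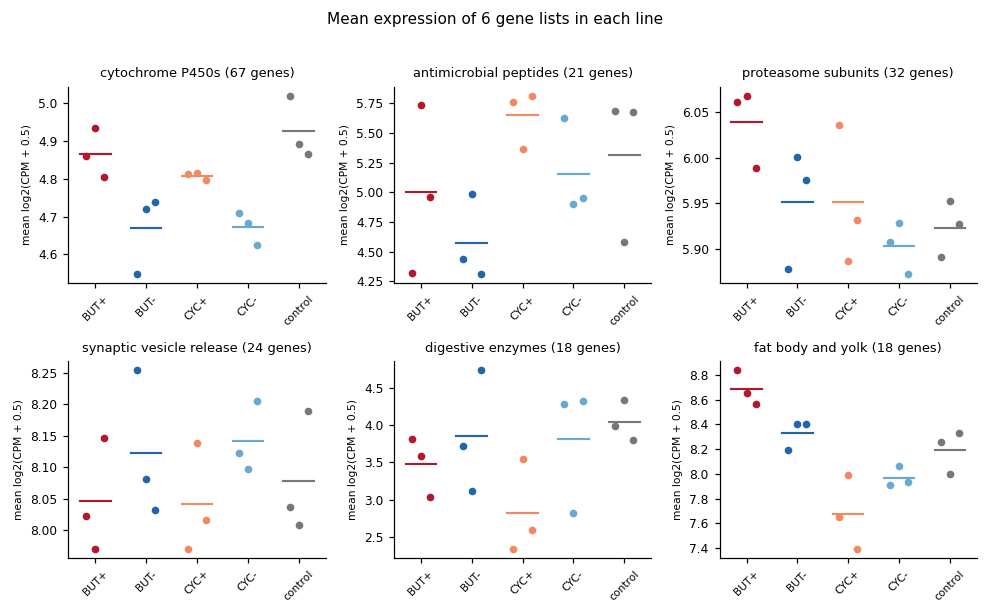
Points are lines and bars are treatment means of the mean log2(CPM + 0.5) over the tested genes of 6 lists. The P450 values of PI+ (4.80 to 4.93) lie above those of PI- (4.55 to 4.74), whereas the other lists overlap between the sides, and fat body genes are high in BUT+ and low in CYC+. The P450 gap rests in part on *Cyp4d1*, and the summed P450 level, not shown, overlapped between the sides.

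The direction of selection interacted with the odorant in 1 gene (0.0108% of those tested) at an adjusted p under 0.1, and in 550 (5.94%) at an unadjusted p under 0.05. This gene was *dyw* (daywake, X, 2692732 to 2693886), which encodes a member of the takeout family of secreted ligand-binding proteins. It was at 2.99, 2.46 and 2.13 CPM in BUT+ and 7.07, 8.29 and 7.65 CPM in BUT-, and at 4.20, 4.68 and 4.45 CPM in CYC+ and 5.11, 4.40 and 4.53 CPM in CYC-. The BUT lines were widely apart and the CYC lines overlapped, with log2 fold changes of -1.60 ± 0.12 and -0.07 ± 0.12. The difference between them was 1.53 ± 0.17 (adjusted p = 0.0212 by edgeR). The value ranged from 1.35 to 1.87 over the settings tried, and the call was lost without BUT- line 2 (adjusted p = 0.102), BUT- line 3 (0.101) or CYC- line 2 (0.114), with values of 1.47, 1.53 and 1.49. It was also lost in the first samples alone (adjusted p = 0.216), in the second samples alone (0.461), with the control lines in the fit (0.258) and with line number as a block (0.338 within odorant and 0.121 alone), all by edgeR. *dyw* overlaps the clock gene *per* in the annotation, so its reads may be shared. The control lines were at 3.46, 5.89 and 3.05 CPM.

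The other 4 genes with the smallest interaction p did not pass correction. *bmm*, which encodes the Brummer triglyceride lipase, was at 72.2, 86.2 and 71.7 CPM in BUT+ and 49.9, 55.8 and 55.2 CPM in BUT-, and at 54.6, 55.2 and 55.1 CPM in CYC+ and 63.0, 63.1 and 58.8 CPM in CYC-. It was thus higher in BUT+ and lower in CYC+, with ranges apart in both odorants (difference -0.68 ± 0.10, adjusted p = 0.179 by edgeR). *CG3597* had the same shape, at 193 to 279 CPM in BUT+ against 142 to 164 CPM in BUT-, and at 57.8, 80.2 and 45.3 CPM in CYC+, below all CYC- lines (-1.55 ± 0.27). *CG16743* also changed sides, while *CG16799* was at 0.67 in BUT and 0.00 in CYC.

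**Figure D5:**
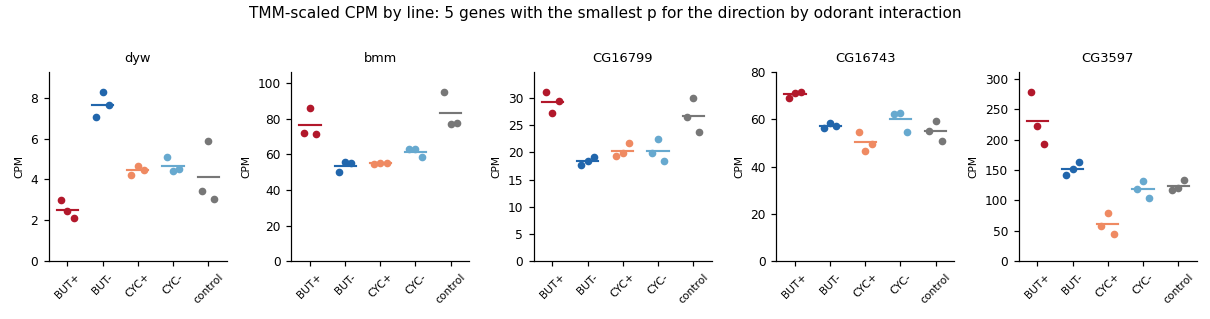
TMM-scaled CPM of each line (points) with treatment means (bars) for the 5 genes with the smallest interaction p. *dyw* is at 2.13 to 2.99 CPM in BUT+ and 7.07 to 8.29 CPM in BUT- with overlapping CYC lines, and *bmm*, *CG16743* and *CG3597* are higher in BUT+ than BUT- and lower in CYC+ than CYC-.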

How the data were processed

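RNA-seq of pools of female heads was analysed. The authors deposited whole-number counts per gene, without normalization, made from reads that had been cleaned of adapters (Trim Galore, cutadapt) and aligned by STAR to release 6 of the *Drosophila melanogaster* genome. The counting tool, its use of strand and its treatment of reads mapping to several genes are not given in the sources used here, so paralogs and overlapping genes are uncertain. Library totals ranged from 23926270 to 38621924 in the 24 selected libraries and from 21194086 to 38248863 in the 6 controls. The 2 libraries of a line differed by more than counting error, and mostly by more in CYC lines. The chi-square of their counts over its degrees of freedom was 9.79 to 23.3 in BUT+ and 24.6 to 90.7 in BUT-. It was 78.8 to 190 in CYC+ and 131 to 166 in CYC-. In the first samples alone 275 genes in BUT and 1258 in CYC had an unadjusted p under 0.05 by edgeR. In the second samples alone the counts were 1021 and 436.

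Counts of the 2 libraries of a line were summed. Genes with at least 1 CPM in 6 of 12 lines were kept and TMM-scaled, and PI+ was tested against PI- with edgeR 4.0.16 (quasi-likelihood, R 4.3.3) with odorant as a block, Benjamini-Hochberg adjustment over all 9262 genes and a threshold of 0.1. The BUT and CYC contrasts and their interaction came from a fit of 4 treatment means. SEs were derived from the fold change and the F statistic. Lines are separate populations, and pools are separate collections of a line. Single genes were also tested by exact two-sided permutation of direction over lines within odorant (400 arrangements) on log2(CPM + 0.5). Positions are those of the release 6 assembly in an Ensembl annotation, which matched 98.7% of the listed genes. Alternatives used DESeq2 1.42.0, limma 3.58.1, other filters and scalings, single samples, replicate blocks and leaving out each line. The fits were tested on simulated counts.

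Genes were named as follows. They are the 10 with the smallest p in each direction among genes with the same sign in both odorants (no gene passed the threshold), the 5 with the smallest interaction p, and the 1 or 2 members of a list with the largest difference. Any other gene is said to have been chosen after its values were seen, which also holds for *TotA*, *TotC*, *Obp19b*, *Ir8a*, *ChAT*, *Poc1*, *Rrp1*, *inaD*, *Gld*, *PH4alphaMP* and *Npc2b*. The members, gene lists and tests were chosen with earlier results of these data known. Lists are described by counts and medians, with no test. No sequences are shown.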

Additional observations from a re-analysis of the deposited data

Results flagged for a closer look

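The difference of *dyw* between the odorants stood out by its interaction test, at 1.53 on the log2 scale (CYC minus BUT, adjusted p = 0.0212 by edgeR's quasi-likelihood test), with all 3 BUT+ lines below all 3 BUT- lines. The adjusted p was 0.1 or more in 8 of 24 other settings, among them 0.461 in the second samples alone and 0.338 with line number within odorant as a block.

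In single lines, 9 of the 144 groups of 6 lines examined held a line far from the other 5. About 1 group in 20 would hold such a line by chance. Among PI+ lines these were *Lsp1beta* at 297 CPM in BUT+ line 1, *CG31817* at 3.97 CPM and *Ir8a* at 6.20 CPM in CYC+ line 2, *Cyp6g1* at 2720 CPM (low) in the same line, and *Gld*, a glucose dehydrogenase, at 42.9 CPM in CYC+ line 3. Among PI- lines they were *rin* at 142 CPM (low) and *GstD10* at 6.25 CPM in BUT- line 1, *vri*, a clock gene, at 38.4 CPM in BUT- line 3, and *Rh4*, an ultraviolet opsin of the eye, at 1090 CPM in CYC- line 2. CYC+ line 2 appears in 3 of these.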

How the results depend on the processing

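The comparison called 0 genes under most settings, including RLE size factors, limma voom, both other filters, single samples, control lines in the fit and a threshold of 0.05. It called 146 with DESeq2, 99 with 24 libraries as separate samples, 27 with line as a random block in voom, and 0 to 7 when 1 line was left out (7 without CYC+ line 2). The interaction, with 1 gene called in the report, gave 71 with DESeq2, 44 with separate libraries, 19 with the random block, and 0 in the first samples, in the second samples and with the control lines in the fit, and 0 to 4 when 1 line was left out (4 without CYC+ line 2). The 70 same-sign genes became 121 with separate libraries, 36 in the first samples and 39 to 112 when 1 line was left out. The 37 opposite-sign genes became 17 and 20 in the first and second samples and 21 to 50 when 1 line was left out. Same-sign genes outnumbered opposite-sign genes in 24 of 24 settings.

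Line numbers were tried as a replicate block, although deviations of same-numbered lines correlated at -0.06, 0.15 and -0.09 in BUT and -0.06, -0.33 and 0.02 in CYC, so the numbers do not pair the lines. With the replicate block, by line number within odorant or alone, 0 genes were called in the comparison, 0 in the interaction, and 90 and 78 genes had the same sign in both odorants.

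*Lsp1beta* was at -0.03 in CYC alone and *Or85e* at -0.06 in BUT alone, both opposite to their pooled values. No other gene whose pooled value the report compares changed direction under the settings run. The genes described for their interaction or their opposite signs in the odorants (*bmm*, *CG3597*, *CG16743*, *CG16799*, *Poc1* and *Rrp1*) are left out of this statement, since their pooled values were not followed.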

Other observations

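Of 17 clock genes tested, 3 were higher and 3 lower in PI+ at an unadjusted p under 0.05, beside 6.35% and 5.04% of all genes. *tim* had medians of 72.1 CPM in PI+ and 86.2 CPM in PI- (log2 fold change -0.32 ± 0.13), and *vri*, a repressor of the clock loop, medians of 36.4 and 32.4 CPM (0.32 ± 0.12). The paper states that heads were taken in the morning over 5 days, with the collection of samples randomized. The day and hour of each pool are not in the labels, so neither was examined. *inaD*, the scaffold of the phototransduction complex, was at 740 to 840 CPM in all PI+ lines and 861 to 920 CPM in all PI- lines (-0.15 ± 0.04), while *Rh4* was at 0.18 ± 0.07. *Npc2b*, of a sterol-binding family, was at 111 to 131 CPM in PI+ and 87.2 to 107 CPM in PI- (0.25 ± 0.06). *Gld* (0.36 ± 0.10) and *PH4alphaMP*, a prolyl hydroxylase subunit with medians of 1.53 and 0.967 CPM (0.66 ± 0.13), did not overlap between the sides either.

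Among the 37 genes with opposite signs, 24 were higher in BUT+ and lower in CYC+, and 13 the reverse. The largest differences were those of *Poc1*, a centriole protein, and *Rrp1*, an endonuclease of base excision repair. *Poc1* was at 1.08, 1.45 and 1.02 CPM in BUT+, at 17.4 CPM in BUT- line 2 and near 1 CPM in the other BUT- lines, at 24.2, 15.3 and 16.7 CPM in CYC+, at 3.84, 1.89 and 7.68 CPM in CYC- and at 31.5, 18.2 and 3.63 CPM in the controls. It was thus near 1 CPM in 5 of the 6 BUT lines. *Rrp1* was at 6.80, 6.34 and 9.74 CPM in BUT+, 7.46, 24.8 and 16.2 CPM in BUT-, 7.70, 21.8 and 30.1 CPM in CYC+ and 6.49, 6.67 and 7.14 CPM in CYC-, with 4 of the 12 lines above 15 CPM. Neither interaction passed correction (adjusted p = 0.556 and 0.421 by edgeR).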
